A study of Drosophila melanogaster with 13 samples.

Results

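Homeodomain genes encode transcription factors that bind DNA through a shared helical domain, and 55 of them, chosen by symbol from the 17737 genes of the count table, are described here in labelled neurons of the Drosophila melanogaster brain. All 55 had a row in the table. By the class of their homeodomain or linked domains they comprise 5 POU, 5 LIM, 2 zinc finger, 4 paired box, 10 paired-like, 5 TALE, 3 sine oculis class, 2 CUT, 1 PROS and 8 Hox genes and 10 NK and other genes of the ANTP class. RNA was sequenced from 4 pools of GFP-labelled TRH-Gal4 neurons, from 1 pool of GFP-labelled sNPFR-Gal4 neurons and from 8 single sNPFR-Gal4 neurons, 13 libraries in all. TRH-Gal4 carries the name of tryptophan hydroxylase, the enzyme of serotonin synthesis, and sNPFR-Gal4 that of the receptor of short neuropeptide F. Both drivers label every cell type in which they are active, and the labels used here give no age, sex or strain of the flies. The number after pool or cell is the one in its label. A pool shows the union of its 15 to 60 cells, whereas a single cell shows 1 neuron.

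Homeodomain factors act in combination: which of them a neuron and its precursor express helps to set its type during development, and some are kept on in the adult to maintain transmitter, receptor and wiring genes. POU and LIM members are known in flies for choosing olfactory receptors and for motor neuron and transmitter identity, the paired box members for eye and mushroom body formation, and the Hox genes for identity along the body axis. Several are textbook factors of serotonin neurons in the fly nerve cord, among them en and zfh2.

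Levels are CPM, reads of a gene per 1000000 reads (1 M) of the library. Depth ran from 8.72 to 15.6 M reads in the TRH pools, was 56.1 M in the sNPFR pool and ran from 3.38 to 67.96 M in the single cells. Where 0 reads were counted, up to 3 remain possible, or 0.193 to 0.344 CPM in a TRH pool, 0.0535 CPM in the sNPFR pool and 0.0441 to 0.887 CPM in a cell. Without molecular identifiers, PCR copies count as reads, so floors and intervals cover counting error only. The brains of TRH-Gal4 flies were digested with protease and dissociated and those of sNPFR-Gal4 flies pinned, and this handling and the driver cannot be told apart. The 4 genes of serotonin synthesis and transport summed to 55955 to 92420 CPM under TRH, where all 4 passed the test described below, to 572.0 CPM in the sNPFR pool and to 1.56 to 4790 CPM in a cell. Ddc alone gave the 572.0 CPM of the sNPFR pool and the 4790 CPM, in cell 4. Trh, SerT and Vmat had 0 reads in that pool and at most 0.639 CPM in a cell. The sNPF-R gene stood at 146, 34.96, 21.9 and 36.4 CPM in TRH pools 40, 45, 60 and 57, at 139.7 CPM in the sNPFR pool and between 0, in cell 5, and 2406 CPM in the cells. The 6 neuron markers summed to 7327 to 9737, 6438 and 6598 to 14335 CPM in those groups, although elav, a pan-neuronal gene, stood at 371, 253, 192 and 229 CPM in TRH pools 40, 45, 60 and 57, at 1.37 CPM in the sNPFR pool and below 10 CPM in cells 1, 4, 5 and 10, with 0 in cell 5. In cell 10 brp, Syn and Rab3 were also below 10 CPM, at 4.84, 0.938 and 1.51 CPM, and its sum came from nSyb and Syt1. The 10 glia markers summed to 147 to 613 CPM under TRH, to 1636 CPM in the sNPFR pool and to 2.91 to 528 CPM in a cell. Their defining marker repo, itself a homeodomain gene, had 0 reads in 3 TRH pools, 3.24 CPM in TRH pool 60, none in the sNPFR pool and 2 over all cells. Hemocyte and basement membrane markers summed to 165 to 418 CPM under TRH, 0 in the sNPFR pool and at most 0.313 CPM in a cell. Pxn alone gave 162 to 406 CPM of this, Hml reached at most 6.75 CPM, and NimC1 and srp had 0 reads throughout. Muscle markers reached at most 10.9, 0.535 and 8.70 CPM, Kenyon cell markers, which include ey and toy, 2151 to 3073, 2140.0 and 1282 to 5478 CPM, and genes of other transmitters 851 to 2726, 2355 and 2141 to 4916 CPM in the same order of groups. The 7 photoreceptor markers were carried by norpA, at 262 to 447 CPM under TRH, 1023 CPM in the sNPFR pool and 0 to 3348 CPM in a cell, and by trpl at 634 CPM in cell 5, while ninaE reached at most 0.104 CPM and trp had 0 reads throughout. In the test described below, 4 of 8 Kenyon cell markers, 1 of 2 tested hemocyte markers and 2 of 9 transmitter genes were higher in TRH, and 1 of 8 Kenyon cell markers and the 1 tested photoreceptor marker in sNPFR. None of the neuron, glia and muscle markers passed with edgeR, with 2, 1 and 0 at an unadjusted p under 0.05 and 1, 2 and 1 called by DESeq2. The part of these markers in the results below was not tested.

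The TRH pools held many homeodomain transcripts at moderate levels, and each single sNPFR neuron held few at high levels. At 10 CPM or more, 22, 23, 24 and 26 of the 55 genes were present in TRH pools 40, 45, 60 and 57, 11 in the sNPFR pool and 5 to 9 in the single cells. These were 40% to 47.3% of the homeodomain genes in the TRH pools, 20% in the sNPFR pool and 9.09% to 16.4% in the cells, against 28.9% to 32.1%, 15.8% and 4.42% to 10.7% of all genes. In these values fewer cells of a type and less RNA per cell cannot be told apart. In the TRH pools, 79 of 220 gene-by-pool values were 0 reads, 46 lay above 0 and below 10 CPM, 64 from 10 to below 100 CPM and 31 at 100 CPM or more. In the cells, 347 of the 440 gene-by-cell values were 0 reads, 41 lay above 0 and below 10 CPM, 7 lay from 10 to below 100 CPM and 45 lay at 100 CPM or more. In the TRH pools the nearest values were 9.97 CPM for ro in pool 40 below the threshold and 10.9 CPM for nub in pool 57 above it. The threshold lay in a sparse range in the cells, where the nearest values were 9.74 CPM for acj6 in cell 10 below and 12.1 CPM for ct in cell 5 above.

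**Figure D1:**
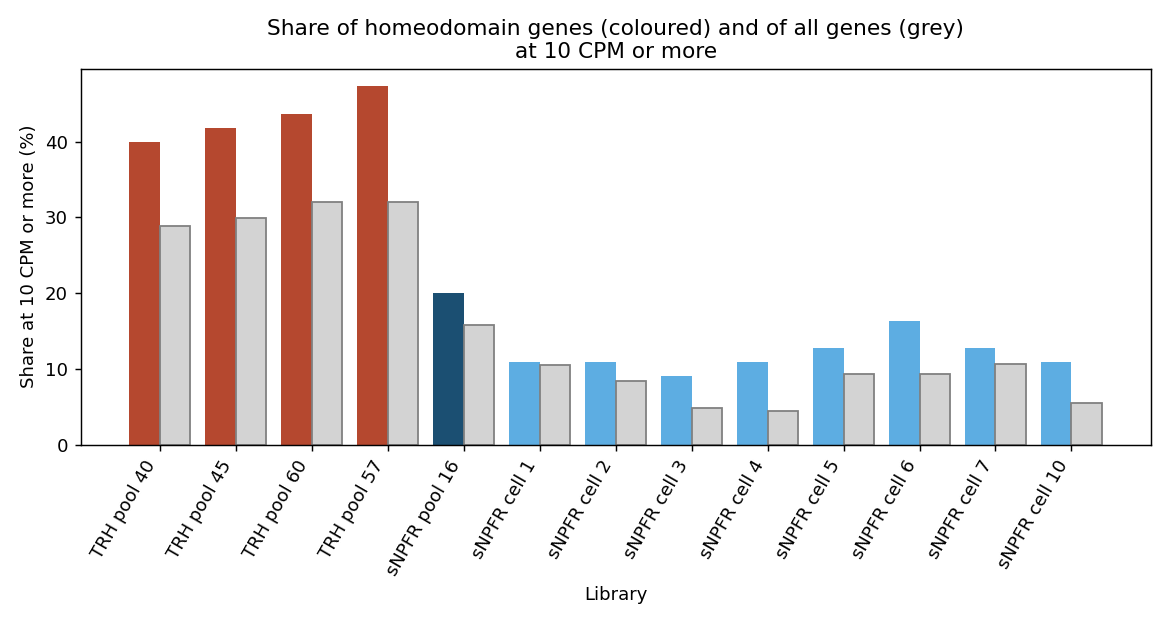
Share of the 55 homeodomain genes (coloured bars) and of all 17737 genes (grey bars) at 10 CPM or more, in percent, for each library, with the TRH pools in red, the sNPFR pool in dark blue and the single sNPFR cells in light blue. The homeodomain share runs from 40% to 47.3% in the TRH pools, is 20% in the sNPFR pool and 9.09% to 16.4% in the cells, and lies above the grey bar in each library.

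Of the 55 genes, 16 reached 10 CPM in all 4 TRH pools. The share was 29.1% of the homeodomain genes, against 22% of all genes of the table. The 16 were Lim1, tup, Awh, zfh1, zfh2, vvl, pdm3, ey, toy, oc, hth, exd, mirr, ct, onecut and pros. Of these, 5 (Awh, zfh1, ey, toy and mirr) had 0 reads in all 9 sNPFR libraries, a pattern found in 1.88% of all genes and in 8.55% of the genes at 10 CPM or more in all TRH pools. In at least 1 single cell, 12 genes reached 10 CPM, a share of 21.8%, against 24.2% of all genes. The sNPFR pool held 11 (20%, against 15.8% of all genes). Over all 13 libraries, 21 genes reached 10 CPM in a TRH pool and in no sNPFR library, 11 in both, 3 (acj6, Lim3 and slou) only in sNPFR libraries and 20 in none. Of those 20, toe, al, OdsH, Dll, Antp and Ubx had 0 reads in every library. How many of all genes show these patterns was not counted, so the split is not read as a trait of homeodomain genes. All genes, too, reached 10 CPM more often in a TRH pool (28.9% to 32.1%) than in an sNPFR library (4.42% to 15.8%).

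**Figure D2:**
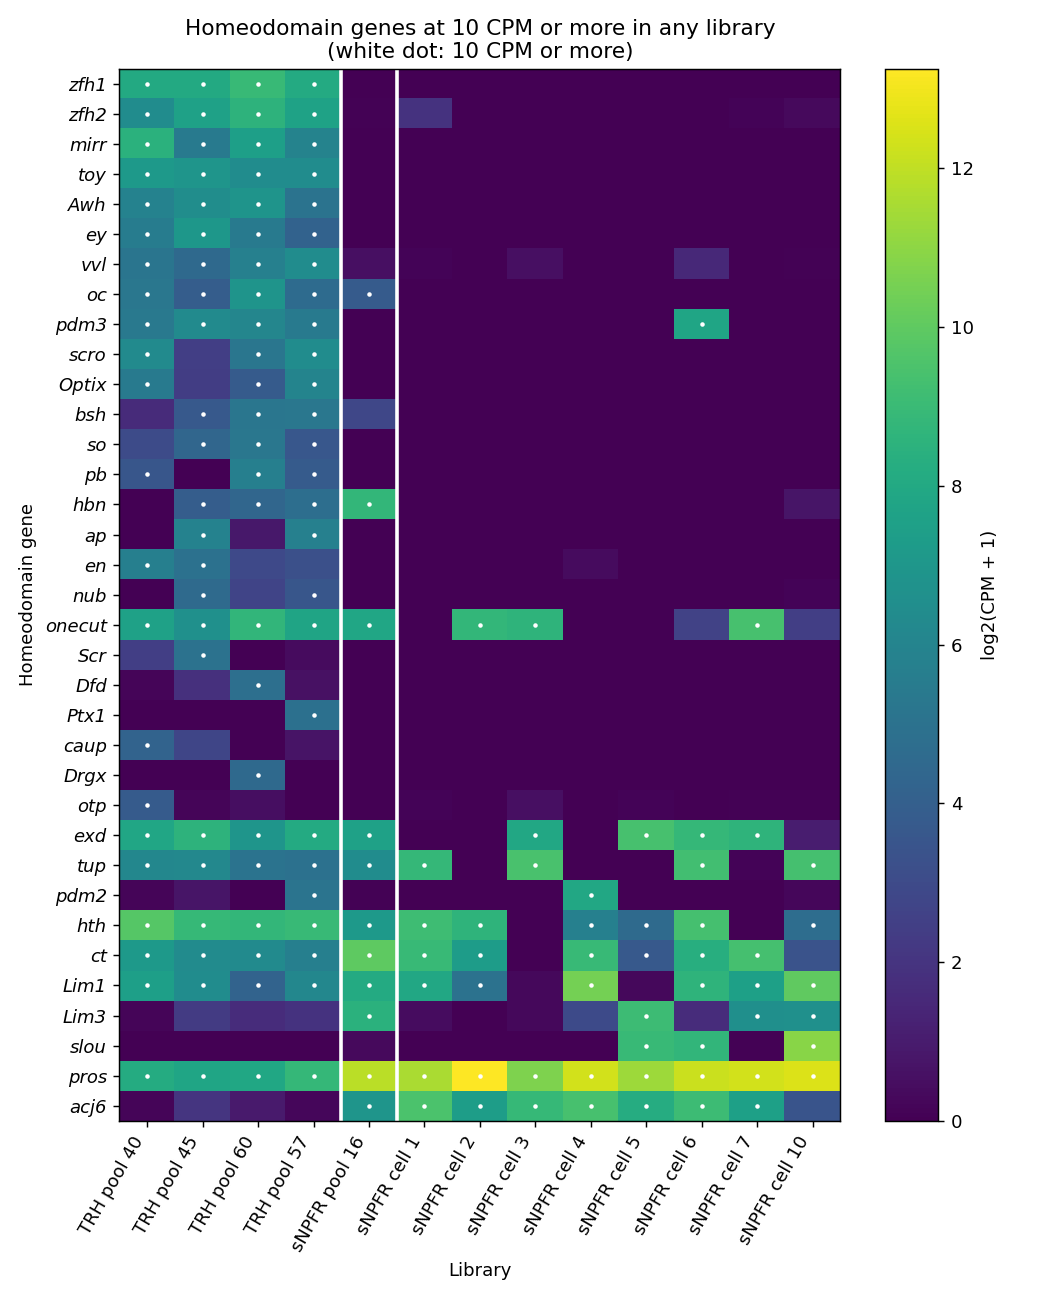
The 35 homeodomain genes at 10 CPM or more in any library (rows), as log2(CPM + 1) in the 4 TRH pools, the sNPFR pool and the 8 single sNPFR cells (columns), with a white dot where the value is 10 CPM or more. The upper rows, from zfh1 to ey, are filled across the 4 TRH pools and at or below 2.78 CPM in every sNPFR library, and the lowest rows, pros and acj6, are brighter in each sNPFR library than in any TRH pool.

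For the comparison of drivers, the 4 TRH pools were set against the sNPFR pool and the sum of the 8 cells, which counted as 2 units, with edgeR's quasi-likelihood test over all 7426 genes that passed a filter on low counts. Log2 fold changes are TRH minus sNPFR, and the value after ± is an approximate standard error worked back from the test. No label names an animal, and the p-values therefore measure the spread between these libraries alone. Of the 55 homeodomain genes 33 passed the filter, and 15 of these passed the test at an adjusted p of 0.05. Of all tested genes 13.6% passed. In TRH 11 of the 33 were higher, against 10.6% of all tested genes, and in sNPFR 4 were, against 3.03%. All 4 TRH pools lay above both units for 15 of the 33 genes (27.3% of all tested genes) and below both for 6 (8.11%). A gene expressed in 1 group can pass the filter through that group alone, so these counts describe the 33 genes and are no test of the class. The median log2 fold change was 8.99 over the 33 genes, the value of Dfd, which had 1 sNPFR read, and 0.67 over all tested genes. The same limit of the filter holds for this median. With sNPFR reads at or near 0 the size of a fold change is poorly fixed, so 8.99 measures no shift of the class. Other scalings moved that median of all genes to between 0.41 and 1.28 and the share of all calls higher in TRH from 77.7% to 67.2% (singleton pairing) and 87.9% (library totals only). Relative to the median of all genes the log2 fold change was -5.11 for pros, -4.11 for ct, -7.69 for Lim3, -8.61 for acj6, 6.16 for vvl and 8.93 for zfh2, and the fold changes below are given before this subtraction. Most calls rested on having all 4 TRH pools: without pool 40, 4 of the 15 calls were lost, without pool 45 or pool 60, 13, and without pool 57, 14, and over all genes the calls numbered 989, 30, 39 and 16 without pools 40, 45, 60 and 57, against 1009. None of the 15 was lost when any single cell was left out.

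**Figure D3:**
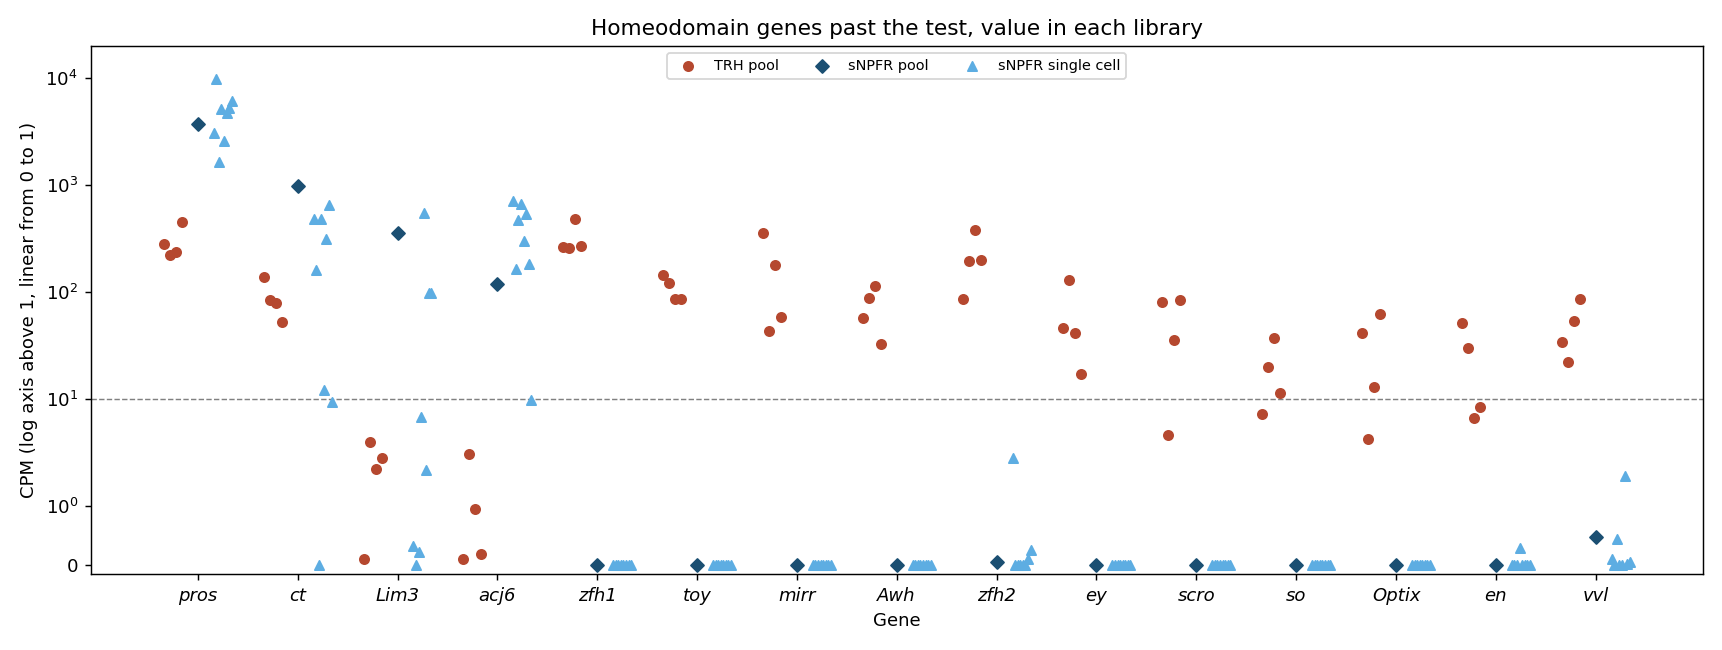
CPM in each library for the 15 homeodomain genes that passed the test, on a log axis above 1 CPM and a linear one below, with 10 CPM as a dashed line, red circles for the 4 TRH pools, a dark blue diamond for the sNPFR pool and light blue triangles for the 8 single cells. The 4 genes at left are higher in sNPFR, and the 11 at right are at or near 0 in all sNPFR libraries.

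Of the prospero and cut classes, pros and ct were higher in sNPFR. The pros gene (FBgn0004595, chromosome 3R, 11328480 to 11407627, plus strand), whose protein passes from neural stem cells to their daughters and ends self-renewal, stood at 284, 223, 236 and 452 CPM in TRH pools 40, 45, 60 and 57. It stood at 3743 CPM in the sNPFR pool and at 3096, 9783, 1657, 5172, 2573, 4724, 5253 and 6057 CPM in cells 1 to 7 and 10 in that order. Every sNPFR library lay above every TRH pool, with the lowest cell 3.66-fold above the highest TRH pool (log2 fold change -4.44 ± 0.41, adjusted p = 0.00518, edgeR). This call was kept whichever TRH pool was left out, and limma-voom gave it an adjusted p of 0.982 at a log2 fold change of -4.78. Reads of pros made up 7.50% to 16.2% of all reads on the 55 genes in the TRH pools, 56.9% in the sNPFR pool and 47.9% to 89.2% in the cells. A noncoding gene on the opposite strand shares 72 bases of its exons.

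The cut gene ct (FBgn0004198, chromosome X, 7608428 to 7678859, plus strand), known for sensory organ identity and dendrite shape, stood at 139, 84.4, 79.1 and 52.6 CPM in TRH pools 40, 45, 60 and 57. It stood at 987 CPM in the sNPFR pool and at 480.3, 162, 0, 480.4, 12.1, 313, 654 and 9.38 CPM in cells 1 to 7 and 10 in that order. Cells 3, 5 and 10 lay below every TRH pool, whereas the other 5 cells lay above all of them. The sNPFR units were higher (log2 fold change -3.44 ± 0.50, adjusted p = 0.0176, edgeR). The summed cells stood at 422 CPM, or 163 CPM without cell 7, and the call was lost without TRH pool 45, 60 or 57 (adjusted p 0.0655 to 0.0825) and with limma-voom (0.283). Its relative onecut, expressed widely in fly neurons, stood at 191, 98.02, 418 and 214 CPM in TRH pools 40, 45, 60 and 57 and at 225 CPM in the sNPFR pool. The cells fell apart: cells 2, 3 and 7 held 430.5, 396 and 683 CPM, cells 6 and 10 held 5.22 and 4.58 CPM, and cells 1, 4 and 5 held 0 reads. The groups overlapped and onecut did not pass (log2 fold change -1.05 ± 0.66, adjusted p = 0.292, edgeR), with a summed level of 401 CPM, or 86.9 CPM without cell 7.

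Among the 5 POU genes, acj6 was higher in sNPFR, vvl was higher in TRH and 3 did not pass. The acj6 gene (FBgn0000028, chromosome X, 15350239 to 15379064, minus strand), known in flies for selecting olfactory receptors and for wiring olfactory neurons, stood at 0.115, 3.08, 0.9404 and 0.193 CPM in TRH pools 40, 45, 60 and 57. It stood at 118 CPM in the sNPFR pool and at 717, 163, 468, 672, 298, 534, 184 and 9.74 CPM in cells 1 to 7 and 10 in that order. Each of the 9 sNPFR libraries lay above each TRH pool, the nearest being cell 10 at 9.74 CPM (log2 fold change -7.94 ± 1.61, adjusted p = 0.0255, edgeR). The fold change was -9.35 without TRH pool 45, which held most of the few TRH reads, and the call was lost without pool 45, 60 or 57 (adjusted p 0.0655 to 0.0828) and with limma-voom (0.0601). The vvl gene (FBgn0086680, chromosome 3L, 6790158 to 6794941, plus strand), known in flies for tracheal cell migration and projection neuron wiring, stood at 34.4, 21.9, 53.8 and 86.1 CPM in TRH pools 40, 45, 60 and 57. It had 0.481 CPM in the sNPFR pool and at most 1.91 CPM in a cell, so no sNPFR library reached the lowest TRH pool (log2 fold change 6.83 ± 1.70, adjusted p = 0.0422, edgeR). That call was lost whichever TRH pool was left out (adjusted p 0.0547 to 0.113) and with no filter on low counts (0.0862).

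The other 3 POU genes did not pass. The pdm3 gene, present in all TRH pools and in 1 cell and known for olfactory neuron identity, stood at 39.9, 79.97, 66.03 and 42.6 CPM in TRH pools 40, 45, 60 and 57, with none in the sNPFR pool or 7 of the cells and 222 CPM in cell 6. The units did not overlap, but pdm3 did not pass (log2 fold change 2.36 ± 2.36, adjusted p = 0.522, edgeR). That result rested on cell 6: without it pdm3 was called higher in TRH, and with the sNPFR pool alone the log2 fold change was 12.98. Its neighbours by class, nub and pdm2, lie 29.0 kb apart on chromosome 2L, and TRH pool 57 held both at 10 CPM or more. The nub gene stood at 0, 23.1, 5.54 and 10.9 CPM in TRH pools 40, 45, 60 and 57 and at most 0.104 CPM in any sNPFR library. The pdm2 gene reached 33.03 CPM in TRH pool 57 and 243 CPM in cell 4 and lay at or below 0.685 CPM in the other 11 libraries. Neither passed (adjusted p = 0.159 for nub and 0.896 for pdm2, edgeR).

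Of the 5 LIM genes, Lim3 was higher in sNPFR, Awh was higher in TRH and 3 did not pass. The Lim3 gene (FBgn0002023, chromosome 2L, 19079256 to 19108427, minus strand), a motor neuron factor in fly and vertebrate, stood at 0.115, 3.999, 2.19 and 2.83 CPM in TRH pools 40, 45, 60 and 57. It stood at 359 CPM in the sNPFR pool and at 546, 97.1 and 98.7 CPM in cells 5, 7 and 10, while the other 5 cells held at most 6.804 CPM. Both sNPFR units lay above all TRH pools, although cells 1, 2, 3 and 6 lay within or below the range of the TRH pools (log2 fold change -7.02 ± 1.37, adjusted p = 0.0238, edgeR). The call was lost without TRH pool 45, 60 or 57 (adjusted p 0.0655 to 0.0828) and with limma-voom (0.0932). The Awh gene (FBgn0013751, chromosome 3L, 3846206 to 3861692, plus strand), known for the fate of imaginal cells, stood at 56.96, 88.5, 114 and 32.4 CPM in TRH pools 40, 45, 60 and 57 and had 0 reads in all 9 sNPFR libraries. Its mean of 72.99 ± 35.7 CPM (SD, n = 4) was at least 1365-fold higher than 3 reads would be in the sNPFR pool, the floor used below (adjusted p = 0.0215, edgeR; 0.0655 to 0.0825 without TRH pool 45, 60 or 57).

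Lim1 and tup were shared by both drivers. Lim1 stood at 176, 85.1, 17.4 and 70.3 CPM in TRH pools 40, 45, 60 and 57 and at 272 CPM in the sNPFR pool. Among the cells it was highest in cells 4 and 10, at 1414 and 1041 CPM, lay between 30.8 and 396 CPM in cells 1, 2, 6 and 7, and was at 0.219 and 0.216 CPM in cells 3 and 5. The tup gene, the fly islet gene, which is needed for serotonergic and dopaminergic identity in the embryonic fly nerve cord, stood at 68.2, 72.7, 31.9 and 30.1 CPM in TRH pools 40, 45, 60 and 57 and at 87.3 CPM in the sNPFR pool. In single cells tup was either high or at or near 0: cells 1, 3, 6 and 10 held 454, 695, 607 and 642 CPM, and the other 4 held at most 0.0883 CPM. Loss of RNA within a cell was not measured, so absence of tup from those 4 is not shown. For both genes the 4 TRH pools lay below both sNPFR units and neither passed (log2 fold change -2.35 ± 0.85, adjusted p = 0.115 for Lim1, and -2.04 ± 0.84, adjusted p = 0.144 for tup, edgeR). The summed level of tup was 189 CPM over all 8, 399 CPM without cell 7 and 109.6 CPM without cell 10. The fifth LIM gene, ap, known for dorsal wing fate and peptidergic neurons, was present in TRH pools 45 and 57 at 57.01 and 52.9 CPM, was at 0 and 0.836 CPM in pools 40 and 60, and had 0 reads in sNPFR (adjusted p = 0.123).

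Both zinc finger homeodomain genes were higher in TRH. The zfh1 gene (FBgn0004606, chromosome 3R, 30765926 to 30789202, plus strand), a motor neuron and mesoderm factor in the fly, stood at 262, 259.8, 486 and 269.5 CPM in TRH pools 40, 45, 60 and 57, with 0 reads in every sNPFR library. Its mean of 319 ± 111 CPM (SD, n = 4) was at least 5972-fold above the floor in the sNPFR pool (adjusted p = 0.00518, edgeR), and of the 11 calls higher in TRH it was the only one kept without pool 45 and without pool 60. Without pool 57 its adjusted p was 0.0558. An antisense gene shares 315 of its exon bases. The zfh2 gene (FBgn0004607, chromosome 4, 501810 to 540874, plus strand), known to bind the control region of the fly Ddc gene, stood at 85.5, 194, 381 and 201 CPM in TRH pools 40, 45, 60 and 57. It had 0.0535 CPM, 3 reads, in the sNPFR pool and at most 2.78 CPM in a cell (log2 fold change 9.60 ± 1.60, adjusted p = 0.0215, edgeR). The fold change was 10.68 without cell 1 and 9.01 without cell 7, and the adjusted p was 0.0655 to 0.0825 without TRH pool 45, 60 or 57. It shares 2325 exon bases with Tdg on the opposite strand, and without strand information reads in that stretch cannot be assigned. Tdg itself had a mean of 97.1 CPM in the TRH pools and reached 609.8 CPM in an sNPFR library, while zfh2 was at or below 2.78 CPM in all sNPFR libraries. The part of Tdg reads in the zfh2 level was not tested.

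Of the paired box and sine oculis classes, ey, toy, so and Optix, all known from eye development, were present in TRH pools and at 0 in sNPFR. The Pax6 genes ey and toy, which start eye development and are kept on in mushroom body neurons, lie on chromosome 4 (697689 to 721173 and 989725 to 1007922, both on the plus strand). The ey gene stood at 46.1, 129.7, 41.6 and 16.96 CPM in TRH pools 40, 45, 60 and 57, and toy at 143, 121, 86.8 and 86.2 CPM in the same pools. Both had 0 reads in every sNPFR library, so the groups did not overlap. Their means of 58.6 ± 49.1 and 109 ± 27.8 CPM (SD, n = 4) were at least 1096-fold and 2045-fold above the floor in the sNPFR pool (adjusted p = 0.0237 and 0.0158, edgeR). Without pool 45 the mean of ey was 34.9 CPM, and without TRH pool 45, 60 or 57 the adjusted p of both ran from 0.0655 to 0.0825. Of the sine oculis class, so, which acts with the Eya cofactor in the eye, stood at 7.22, 19.99, 36.99 and 11.3 CPM in TRH pools 40, 45, 60 and 57. Optix, which acts in the eye and optic lobe, stood at 41.7, 4.23, 13.1 and 62.8 CPM in the same pools. Both again had 0 reads in all 9 sNPFR libraries and passed (adjusted p = 0.0349 for so and 0.0363 for Optix, edgeR), with means at least 353-fold and 569.5-fold above the floor. Without pool 57 the mean of Optix was 19.7 CPM. Optix was lost whichever TRH pool was left out (adjusted p 0.0592 to 0.092), and so without pool 45, 60 or 57 (0.0705 to 0.0849) and with no filter on low counts (0.0562). The other gene of the class, Six4, had at most 0.9404 CPM in any library. The later paired box genes eyg and toe were at or near 0, with 1 read of eyg in all 13 libraries and none of toe.

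Of the TALE genes, which have a loop of extra residues in the homeodomain, mirr was higher in TRH, 3 tested genes did not pass, and ara was too low to test. The mirr gene (FBgn0014343, chromosome 3L, 12693639 to 12710249, plus strand), an Iroquois gene of eye and wing patterning, stood at 353, 42.96, 180.0 and 58.98 CPM in TRH pools 40, 45, 60 and 57, with 0 reads in sNPFR. Its pools spread 8.21-fold, the mean of 159 ± 143 CPM (SD, n = 4) was at least 2968-fold above the floor (adjusted p = 0.0212, edgeR), and the adjusted p was 0.0655 to 0.0825 without pool 45, 60 or 57. Without pool 40 the mean was 93.99 CPM. Its Iroquois neighbours on chromosome 3L were low: caup reached 17.8 CPM in TRH pool 40 and ara at most 4.56 CPM, although ara and caup lie 13.6 kb apart and caup lies 71.8 kb from mirr.

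The remaining TALE pair, hth and exd, encode partners of Hox proteins: Hth brings Exd into the nucleus. The hth gene stood at 854, 477, 445 and 486 CPM in TRH pools 40, 45, 60 and 57, at 139 CPM in the sNPFR pool and at 565, 395, 0, 52.95, 22.8, 653, 0.0294 and 25.99 CPM in cells 1 to 7 and 10 in that order. All TRH pools lay above both sNPFR units, but hth missed the threshold (log2 fold change 1.67 ± 0.46, adjusted p = 0.0565, edgeR). It passed in 9 of 23 alternative settings, among them DESeq2 (adjusted p = 0.000119), limma-voom (0.0126) and library totals only (0.0288). The exd gene stood at 229, 385, 121 and 275 CPM in TRH pools 40, 45, 60 and 57 and at 191 CPM in the sNPFR pool, with 0, 0, 242, 0, 678, 461, 397 and 1.09 CPM in cells 1 to 7 and 10 in that order. The groups overlapped (log2 fold change -0.49 ± 0.64, adjusted p = 0.639, edgeR). An antisense gene shares 207 exon bases of hth. In single cells the pair was often found apart. Cells 5 and 6 held both at 10 CPM or more, cells 1, 2, 4 and 10 held hth without exd, cells 3 and 7 held exd without hth, and no cell lacked both. Over the summed cells hth stood at 110.0 CPM, or 232 CPM without cell 7, and exd at 295 CPM, or 180.5 CPM without cell 7. Per kilobase of annotated exon, exd and hth had the highest mean levels of the 55 genes in the TRH pools, at 76.5 ± 33.2 and 47.8 ± 16.3 CPM per kb (SD, n = 4), a difference within their spread. In the cells pros had the highest median, at 199 CPM per kb, followed by acj6 at 86.4 and tup at 68.5 CPM per kb.

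**Figure D4:**
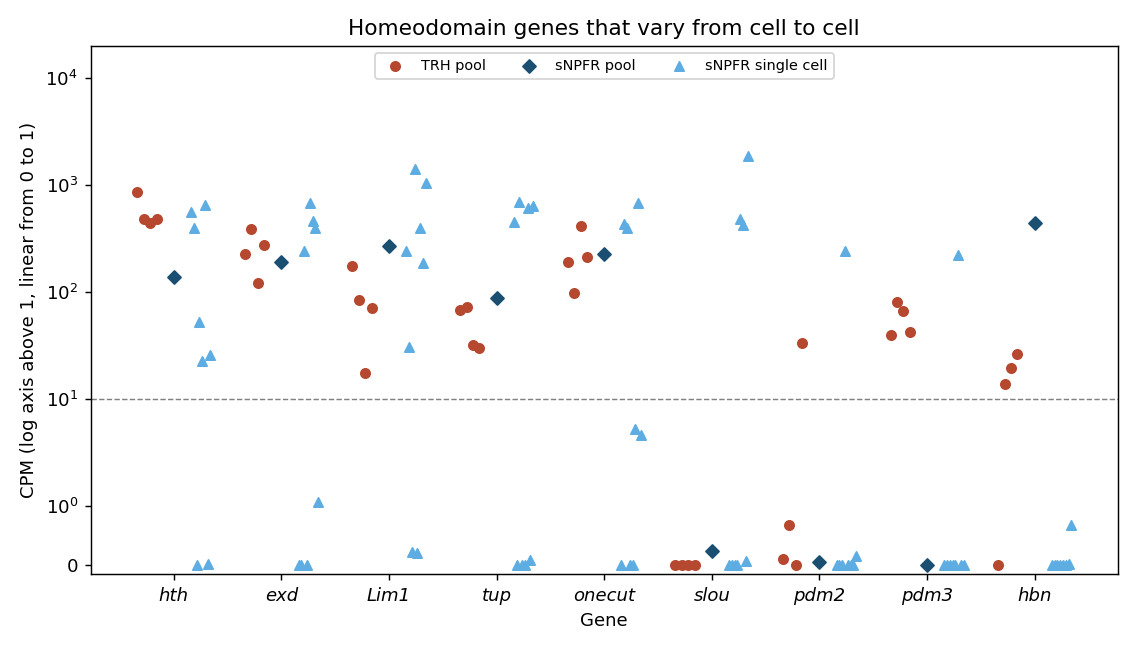
CPM in each library for 9 homeodomain genes that are high in some single cells or pools and low or at 0 in others, on a log axis above 1 CPM and a linear one below, with 10 CPM as a dashed line, red circles for TRH pools, a dark blue diamond for the sNPFR pool and light blue triangles for single cells. Single cells fall into a high group and a group at or near 0 for exd, tup and slou, while the TRH pools lie between 121 and 385 CPM for exd.

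Among the 10 NK and other ANTP-class genes, en and scro were higher in TRH, and slou reached 10 CPM in 3 sNPFR cells and in no other library. The en gene, which marks the serotonin neuron lineage of the fly nerve cord, stood at 51.8, 30.2, 6.69 and 8.35 CPM in TRH pools 40, 45, 60 and 57, so 2 of 4 pools lay below 10 CPM. The sNPFR libraries held 1 read of en in all, in cell 4. The mean TRH level was 4491-fold above that of the pooled sNPFR reads, with a counting interval of 806-fold to 177376-fold (adjusted p = 0.0391, edgeR). Without pool 40 the mean was 15.1 CPM. The call was lost whichever TRH pool was left out (adjusted p 0.0528 to 0.0833), with no filter on low counts (0.0614), with the summed cells alone (0.0507) and with cells scaled to equal depth (0.0700). Its neighbour inv, its paralogue 14.3 kb away, was seen at 9.597 CPM in TRH pool 45 and at most 0.104 CPM in any other library, so en was present without inv in pool 40. The scro gene, a relative of vertebrate Nkx2-1, stood at 80.9, 4.57, 35.2 and 85.01 CPM in TRH pools 40, 45, 60 and 57, with 0 reads in sNPFR. Its mean of 51.4 ± 38.5 CPM (SD, n = 4) was at least 962-fold above the floor (adjusted p = 0.0299, edgeR), and it was lost whichever pool was left out (adjusted p 0.0528 to 0.0852).

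The slou gene, known for the identity of muscle founder cells in the fly embryo, showed the reverse pattern. It had 0 reads in all 4 TRH pools and 0.249 CPM in the sNPFR pool. Cells 5, 6 and 10 held 485, 426 and 1883 CPM, and the other 5 at most 0.0736 CPM. It did not pass the filter on low counts and was not tested in the main comparison. With no filter on low counts slou was called higher in sNPFR. The summed level was 341 CPM, or 71.5 CPM without cell 10 and 719.9 CPM without cell 7. Muscle markers summed to at most 8.70 CPM in any cell. Of the other 6 genes of the class, only bsh reached 10 CPM in a library, and it stood at 6.01 CPM in the sNPFR pool. In the TRH pools bsh, a brain-specific optic lobe gene, stood at 2.06, 12.1, 35.4 and 36.8 CPM and ems, of the anterior brain, at 0, 4.11, 6.27 and 7.903 CPM in pools 40, 45, 60 and 57, and vnd, of the ventral nerve cord column, reached 7.997 CPM. None of these 3 passed (adjusted p = 0.498, 0.13 and 0.182, edgeR). The ro gene reached 9.97 CPM in pool 40, ind at most 0.313 CPM, and Dll, the gene of limb outgrowth, had no reads.

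Hox genes, which set identity along the body axis and lie in 2 complexes on chromosome 3R, were seen at low levels in TRH pools and at no more than 0.5702 CPM in sNPFR libraries. Of the 8, pb reached 10 CPM in 3 TRH pools, Dfd and Scr in 1 each, and lab, Antp, Ubx, abd-A and Abd-B in none. The pb gene stood at 10.9, 0, 50.9 and 13.04 CPM in TRH pools 40, 45, 60 and 57, Dfd at 0.115, 2.63, 28 and 0.514 CPM and Scr at 4.47, 30.7, 0 and 0.321 CPM in the same pools. The highest pool differed between them, pool 60 for pb and Dfd and pool 45 for Scr. Only these 3 passed the filter on low counts and 0 passed edgeR's test, with 2 at an unadjusted p under 0.05, all 3 called by DESeq2 and 0 by limma-voom (adjusted p = 0.11, 0.157 and 0.15, edgeR). In the 9 sNPFR libraries the 8 Hox genes together had 1 read of lab and 1 of Dfd, and abd-A had 32 reads in the pool and 34 in cell 7, at 0.5702 and 0.5003 CPM. The genes of thorax and abdomen, Antp, Ubx, abd-A and Abd-B, stood at 0, 0, at most 0.257 and at most 1.86 CPM in the TRH pools. The 3 Hox genes found lie side by side in the complex, with gaps of 49.8 kb from pb to Dfd and 20.7 kb from Dfd to Scr.

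Of the 10 paired-like genes 2, oc and hbn, were tested and 0 passed, with 0 at an unadjusted p under 0.05 in edgeR and 0 called by DESeq2 or limma-voom. The oc gene, the fly orthodenticle gene of the anterior brain, was the only one at 10 CPM or more in all TRH pools, at 36.7, 14.3, 117 and 24.2 CPM in TRH pools 40, 45, 60 and 57. It stood at 12.99 CPM in the sNPFR pool, just below the lowest TRH pool, and at 0 reads in all 8 cells (log2 fold change 2.55 ± 2.55, adjusted p = 0.524, edgeR). The hbn gene, also of brain formation, split the 2 sNPFR units. It stood at 0, 13.8, 19.6 and 26.3 CPM in TRH pools 40, 45, 60 and 57, at 439.9 CPM in the sNPFR pool and at no more than 0.677 CPM in a cell, so TRH pools 45, 60 and 57 lay between the units (adjusted p = 0.262, edgeR). Per kilobase of annotated exon it was the highest of the 55 genes in that pool, at 245 CPM per kb, against 150.4 CPM per kb for pros. The same pool also held the glia markers Eaat1, alrm, Gs2 and Tret1-1 at 1105, 323, 161 and 45.2 CPM. Of the other glia markers e stood at 1.92 CPM there, and repo, nrv2, moody, wrapper and gcm were at 0. The part of glial RNA in the hbn level was not tested. The neighbours of hbn on the chromosome, otp and Rx, reached 13.1 and 2.25 CPM at most. Ptx1 and Drgx were each seen in 1 TRH pool, at 29.2 CPM in pool 57 and 21.7 CPM in pool 60, with 0 reads in every other library. The unc-4 gene reached 4.91 CPM, and OdsH and al had 0 reads throughout.

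No 2 single sNPFR neurons held the same set of homeodomain genes at 10 CPM or more. Only pros was present in all 8 cells, as 0.88% of all genes were, with acj6 in 7, Lim1, hth and ct in 6, tup and exd in 4, Lim3, onecut and slou in 3, and pdm2 and pdm3 in 1. The exact Clopper-Pearson interval at 95% was 63.1% to 100% for 8 of 8 cells, 47.3% to 99.7% for 7 of 8 and 8.52% to 75.5% for 3 of 8. These intervals take the 8 cells as independent draws, which the labels do not show, and leave out any loss of RNA within a cell. Cell 1 held acj6, Lim1, tup, hth, ct and pros. Cell 2 had the same set with onecut in place of tup, and cell 4 with pdm2 in place of tup. Cell 3 had the fewest, acj6, tup, exd, onecut and pros, and was the only one with ct at 0 reads. Cell 5 held acj6, Lim3, hth, exd, ct, pros and slou. Cell 6 had the most, 9 genes, with acj6, Lim1, tup, pdm3, hth, exd, ct, pros and slou. Cell 7 held acj6, Lim1, Lim3, exd, ct, onecut and pros. Cell 10 held Lim1, Lim3, tup, hth, pros and slou, with acj6 and ct just under the threshold. Across the 28 pairs of cells, 2 to 6 genes were shared, with a median of 4. Of the 12 genes present in cells, pdm3, pdm2 and slou were under 10 CPM in the sNPFR pool, and of the 11 genes of the pool, hbn and oc were under 10 CPM in every cell.

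Between TRH pools, which held 22 to 26 genes each at 10 CPM or more, 17 to 22 genes were shared in each of the 6 pairs. Larger sets can share more genes than the 5 to 9 of a cell, and a pool is a union of cells. These counts are therefore not compared with those of the cells. Beyond the 16 genes common to all 4 pools, hbn, bsh, so, Optix, pb and scro reached 10 CPM in 3 pools, ap, en and nub in 2, and pdm2, otp, Ptx1, caup, Dfd, Scr and Drgx in 1. Some differed between pools by much more than others. Of the 16 common genes, toy spread 1.66-fold from the lowest to the highest pool, zfh1 1.87-fold and hth 1.92-fold, whereas Lim1 spread 10.1-fold, mirr 8.21-fold and oc 8.19-fold. Pool 45 was low for several genes at once, with scro at 4.57, Optix at 4.23 and pb at 0 CPM, and was the highest pool for ey at 129.7 CPM and Scr at 30.7 CPM. Pool 40 had 0 reads of ap, nub and hbn and was the highest for mirr, hth, Lim1 and en.

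All 4 homeodomain genes on chromosome 4, the small dot chromosome, reached 10 CPM in every TRH pool. These were zfh2, ey, toy and onecut. The first 3 were higher in TRH, against 10.6% of all tested genes, and all 3 calls were lost without TRH pool 45, 60 or 57. Of 111 genes on that chromosome in the table, 56 passed 10 CPM in all 4 TRH pools. How many of them were higher in TRH was not counted.

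Of 10 partners and cofactors of homeodomain proteins, 6 reached 10 CPM in all TRH pools, 5 in the sNPFR pool and 6 in at least 1 cell, while eya, tsh and tio had 0 reads in every sNPFR library. Of these 10 genes 9 were tested and 0 passed with edgeR, with 4 at an unadjusted p under 0.05, 4 called by DESeq2 and 0 by limma-voom, and the median log2 fold change was -0.15, against 0.67 over all genes. Chi, the LIM-binding cofactor, stood at 76.6, 48.2, 59.7 and 23.7 CPM in TRH pools 40, 45, 60 and 57 and at 320.4 CPM in the sNPFR pool. It was high in cell 3 only, at 1838 CPM, with at most 0.833 CPM in the other 7 cells, 6 of which held Lim1 (log2 fold change -2.29 ± 0.82, adjusted p = 0.114, edgeR). The eya gene, the partner of so, stood at 55.2, 0, 63.4 and 16.3 CPM in TRH pools 40, 45, 60 and 57 and had 0 reads in sNPFR, as so did, but missed the threshold (adjusted p = 0.0977). The dac gene, which acts downstream of them in the eye, stood at 21.5, 56.7, 75.5 and 14.2 CPM in those pools, 87.8 CPM in the sNPFR pool and up to 2222 CPM in cell 4 (log2 fold change -3.26 ± 0.998, adjusted p = 0.0773). The tio gene did not pass either (adjusted p = 0.0742). A further list of 45 homeodomain genes outside the 55 had 12 tested genes, of which 1 passed, Dbx, higher in TRH at 101, 38.96, 10.97 and 28.4 CPM in pools 40, 45, 60 and 57 with 0 reads in sNPFR (adjusted p = 0.0265, edgeR). In the same list 6 genes had an unadjusted p under 0.05, DESeq2 called 10 and limma-voom 3. The achi gene of that list did not pass (adjusted p = 0.0613, edgeR). Of those 45 genes 18 had 0 reads in all 13 libraries.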

How the data were processed

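RNA from hand-sorted GFP-labelled neurons was amplified with the SMART-Seq v4 kit (12 PCR cycles for pools, 17 for single cells) and made into libraries with the Nextera XT kit, per the labels' protocols. Neither kit marks strand. The deposited counts are whole reads per gene, and the authors' other deposited table holds normalized signal, from which whole reads were recovered for 100% of the values of its 6445 genes (tolerance 0.001). The submitters' processing notes name STAR, edgeR and build BDGP6 without versions. Which tool counted the reads, with which annotation and strand setting, is not given in the sources used here. Of the deposited count columns, 1 matched no sample and was not used.

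CPM were computed from column totals. The 4 TRH pools were compared with the sNPFR pool and the sum of the 8 cells, taken as 2 units because no label ties cells to animals. The test was edgeR 4.0.16's quasi-likelihood test in R 4.3.3 (TMM scaling, filterByExpr, Benjamini-Hochberg adjustment over 7426 genes, threshold 0.05, 4 residual degrees of freedom). The approximate standard error is the absolute log2 fold change over the square root of the F statistic. Cell 7 gave 52.7% of the summed reads of the cells. Alternatives were DESeq2 1.42.0, limma-voom (limma 3.58.1), other scalings and filters, each unit alone, cells scaled to equal depth and leaving out any TRH pool or cell. A further one, the recovered reads, was chosen after seeing the data. On simulated counts for 7426 genes the test called 39 of 100 genes changed 64-fold, 4 of 100 changed 8-fold and 1 unchanged gene. Missing the threshold therefore does not show that a gene was equal in both groups.

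The 55 genes, the other lists and the tests were chosen with earlier results of these data known. Values in every library, or the range over cells, are given for genes that passed the test, that reached 10 CPM in all TRH pools or that did so in 2 or more cells, and genes at 100 CPM or more in a library are given there. From each list that is not of markers, up to 4 genes with the smallest p are named, except where a gene is not reported here. Of the markers, elav, brp, Syn, Rab3, nSyb, Syt1, norpA, trpl, ninaE, trp, Pxn, Hml, NimC1 and srp are named after their values were seen. The same holds for the glia markers Eaat1, alrm, Gs2, Tret1-1, e, nrv2, moody, wrapper and gcm, and for Tdg and tsh besides. Coordinates and exon lengths come from Ensembl release 115 (BDGP6), matched by identifier for 54 genes and by symbol for scro. Tables used Python 3.11.15, pandas 2.3.3, numpy 2.4.6 and scipy 1.17.1, and figures matplotlib 3.10.9.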

Additional observations from a re-analysis of the deposited data

Results flagged for a closer look

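In 9 of 44 groups of values examined on the log2(CPM + 1) scale, 1 library stood apart from the rest of its group by Dixon's criterion. Chance meets it in about 1 of 20 groups only where values are normally distributed. For Ptx1, Drgx and pdm3 all other libraries of the group had 0 reads, which meets the criterion by construction. The 9 are therefore not compared with that rate. Among the TRH pools, pool 60 was high for zfh1 (486 CPM, with 259.8 to 269.5 CPM in the others) and held Drgx at 21.7 CPM, which had 0 reads in the other 3. Pool 40 was high for hth (854 CPM, with 445 to 486 CPM in the others) and for otp (13.1 CPM, with at most 0.418 CPM). Pool 57 held pdm2 at 33.0 CPM, against at most 0.685 CPM in the others, and Ptx1 at 29.2 CPM, against 0 reads. Among the single cells, cell 10 was low for acj6 (9.74 CPM, with 163 CPM as the next lowest). Cell 6 alone held pdm3 (222 CPM), and cell 4 held pdm2 (243 CPM) where no other cell passed 0.156 CPM. No cause of these values was tested.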

How the results depend on the processing

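No paired analysis was possible because the groups compared share no replicate numbers. Of 738 log2 fold changes recomputed for single genes under the 23 alternatives, 654 kept their direction and side of the threshold, 21 newly passed, 53 no longer passed and 10 changed sign. DESeq2 called 20 of the homeodomain genes higher in TRH, against 11, and limma-voom called 0 higher in sNPFR, against 4. With limma-voom 2 genes higher in sNPFR had an unadjusted p under 0.05, and DESeq2 called 4. Leaving out a library gave 0 to 13 genes higher in TRH and 1 to 4 higher in sNPFR. At 50 CPM, 8 genes were present in all TRH pools, against 16 at 10 CPM. The sign changes were all of genes that did not pass: pdm2 (-0.23 with limma-voom, -0.37 with the summed cells alone, -1.19 with cells scaled to equal depth, and -0.25 to 1.19 with a library left out), hbn (0.20 with limma-voom and 6.16 with the summed cells alone), exd (0.0603 with library totals only, 0.12 with the sNPFR pool alone and 0.0216 with equal depth) and onecut (-1.45 to 0.10 with a library left out). The cause of these changes was not tested. Over all genes, 784 were called higher in TRH and 225 in sNPFR with edgeR, 2578 and 461 with DESeq2, and 1045 and 75 with limma-voom. Single cells were sequenced unevenly, and by counting error alone a gene at 0 reads in a shallow cell could be present at under 0.887 CPM. Loss of RNA before sequencing was not measured, and the pan-neuronal gene elav had 0 reads in cell 5. A gene at 0 reads in a cell is therefore not shown to be absent from it.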
